A study of Homo sapiens with 4 samples.

Results

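The solute carriers described here are 17 of the genes whose symbols begin with SLC and a digit, taken from the 1998 gene rows of the study's ATOH1-TRAP comparison that were at hand. The 1998 rows are the most significant part of that comparison, so every one of the 17 had already been selected for a difference between IP and input, and the directions below are a description and not an independent finding. RefSeq lists 386 protein-coding symbols of this form in the human genome, so the 17 are a selected few of a large superfamily. They belong to 15 SLC families and were grouped here into 9 groups by what they carry. One of them, SLC9A3R2, matches the naming pattern but encodes the PDZ scaffold protein NHERF2 and carries nothing.

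TRAP-seq measured RNA bound to tagged ribosomes in cells differentiated from RUES2, a human embryonic stem cell line. All libraries came from the ATOH1-EGFP-L10a line, in which an ATOH1 enhancer drives a GFP-tagged ribosomal protein from a lentiviral transgene, so that GFP antibodies (19C8 and 19F7) pull down ribosomes of cells in which that enhancer is or was active. For this transgene 2 clones were kept, and the sources used here do not say which gave these libraries. Cells were plated with a ROCK inhibitor and cultured until DIV28 on transwell membranes with puromycin, SB431542, LDN-193189, CHIR99021, BMP7, FGF2 and BDNF. Cycloheximide was added to the medium shortly before lysis to stabilise polysomes. The libraries comprised 3 IPs, from 3 independent differentiation experiments, and 1 input, which the study also calls unbound RNA; all carried the same transgene and had the same treatment.

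Solute carriers are membrane proteins that move ions, metals, nutrients and small metabolites across the plasma membrane or the membranes of organelles. Some are coupled to a sodium or proton gradient, some exchange one solute for another, and others let a solute run down its own gradient. In the developing brain they supply amino acids, lactate, vitamins and metals, and load neurotransmitter into vesicles.

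Which library is the input is given in 2 ways. The sample labelled as input has a title with 2 tags, T106, which all 4 titles share, and T113, which no other has. The file listed with it is tagged T106 only, and the file tagged T113 is listed with a sample labelled IP. The T113 library is taken as the input below. With it as input, 363 of 1549 genes of the study's comparison matched a single transcript in mean count and fold change, whereas 1 matched when any of the other 3 libraries took its place. With the assignment of the labels, all 17 log2 fold changes turned their sign and none was called (0 at an unadjusted p under 0.05 as well).

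The total of estimated counts was between 34603230 and 37719839 in the IPs against 41173019 in the input. Markers of the labelled cells were much higher in the IPs: the granule cell progenitor factor ATOH1 had 44.2 ± 6.42 TPM (SD, n = 3) in the IPs, beside 0.304 TPM in the input. Of 12 listed progenitor markers 8 were tied to transcripts, and 7 of these were called higher. Of 11 listed markers of young neurons 9 were tied, and all 9 were called higher. Only genes of the 1998 most significant rows could be tied, so every tied marker was already selected for a difference. Over the 1737 tied genes 26.7% were called higher and 28.9% lower. Of 11 listed markers of mesenchyme and fibroblasts, 6 were tied. These summed to between 1338 and 1612 TPM in the IPs, beside 12109 TPM in the input. Most of that was COL1A2, with 10365 TPM in the input and 1153 ± 138 TPM (SD, n = 3) in the IPs. All 6 had a log2 fold change below 0, and 4 were called lower. Of 10 listed markers of radial glia and astroglia, 3 were tied. They summed to between 101 and 121 TPM against 374 TPM, with 2 called lower. The other, FABP7, went the opposite way, with 54.4 ± 11.2 TPM (SD, n = 3) against 20.1 TPM (adjusted p = 0.0736). Of 10 listed markers of endothelium, 3 were tied. They summed to between 81.0 and 119 TPM against 462 TPM, with 1 called lower and 1 (CLDN5) higher. The lower sums of the mesenchymal, glial and endothelial markers went along with the carriers that were lower in the IPs. The part of cell types in those results was not tested. In bulk RNA, fewer cells of a type and less of an RNA per cell cannot be told apart.

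Each gene is given as the sum of its transcripts in TPM, a count scaled by transcript length and library total, which allows levels to be compared between genes. Fold changes and tests come from edgeR's quasi-likelihood fit to the estimated counts of all 43464 genes and transcripts that passed a filter on low counts, and "called" means an adjusted p under 0.05 in that fit. With 1 input, the fit assumes that the input varies as the IPs do. All 17 carriers passed the filter.

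In all 3 IPs the level of 5 carriers was above the input and that of the other 12 below it, with no overlap for any of the 17. Lack of overlap is common here, since over all genes and transcripts 28% had every IP above the input and 33.7% every IP below it, and over the 1737 genes tied to transcripts in the same way as the carriers these shares were 48.6% and 51.4%. Of the 17, 1 was called higher in the IPs and 5 lower, which is 5.88% and 29.4%. Over all genes and transcripts 2.24% were called higher and 1.54% lower, and over the 1737 tied genes 26.7% and 28.9%. The tied genes are the fitting background, since they were selected in the same way, and the share of carriers called in either direction, 35.3%, is below the 55.6% of the tied genes. The median log2 fold change of the 17 was -1.01, against -0.75 over the tied genes and 0.09 over all genes and transcripts. The 17 genes together had 454, 370 and 362 TPM across the IPs against an input of 967 TPM.

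The mitochondrial ADP/ATP carrier SLC25A4 rose. The phosphate transporter SLC20A1, the amino acid carriers SLC7A8 and SLC38A10, the vitamin transporter SLC5A6 and SLC37A3 fell. These calls depend on the fit. Neither edgeR without any 1 of the 3 IPs nor limma-voom called any of the 17, of the tied genes or of all genes and transcripts. The loss of calls was thus not particular to the carriers, and all 17 kept an unadjusted p under 0.05 in those fits. DESeq2 called all 17, beside 843 higher and 892 lower of the 1737 tied genes. That was largely fixed beforehand, since the carriers and tied genes were selected from the study's own DESeq2 comparison of these data.

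**Figure D1:**
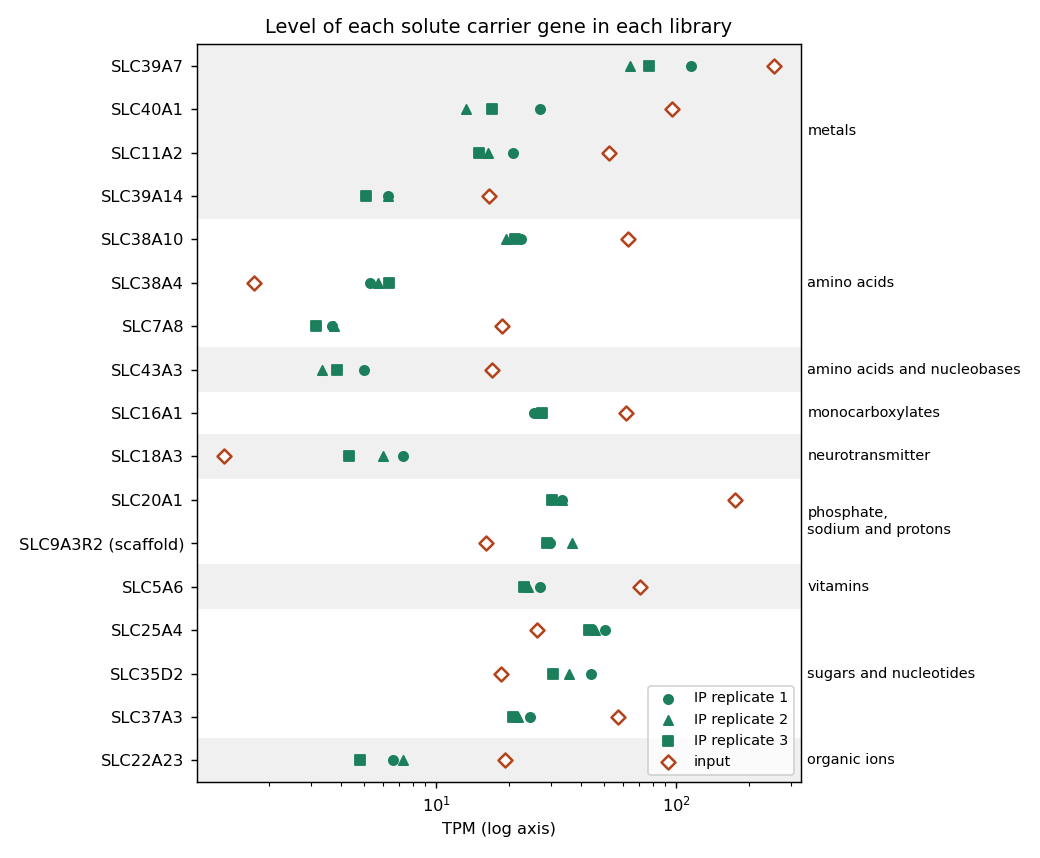
Level of the 17 solute carrier genes in TPM (x axis, logarithmic) in each of the 3 IPs (filled symbols) and in the input (open diamonds), with genes on the y axis grouped by what they carry. The open diamond lies to the right of all filled symbols for 12 genes and to the left for 5, and the lowest input level is that of SLC18A3 at 1.30 TPM.

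**Figure D2:**
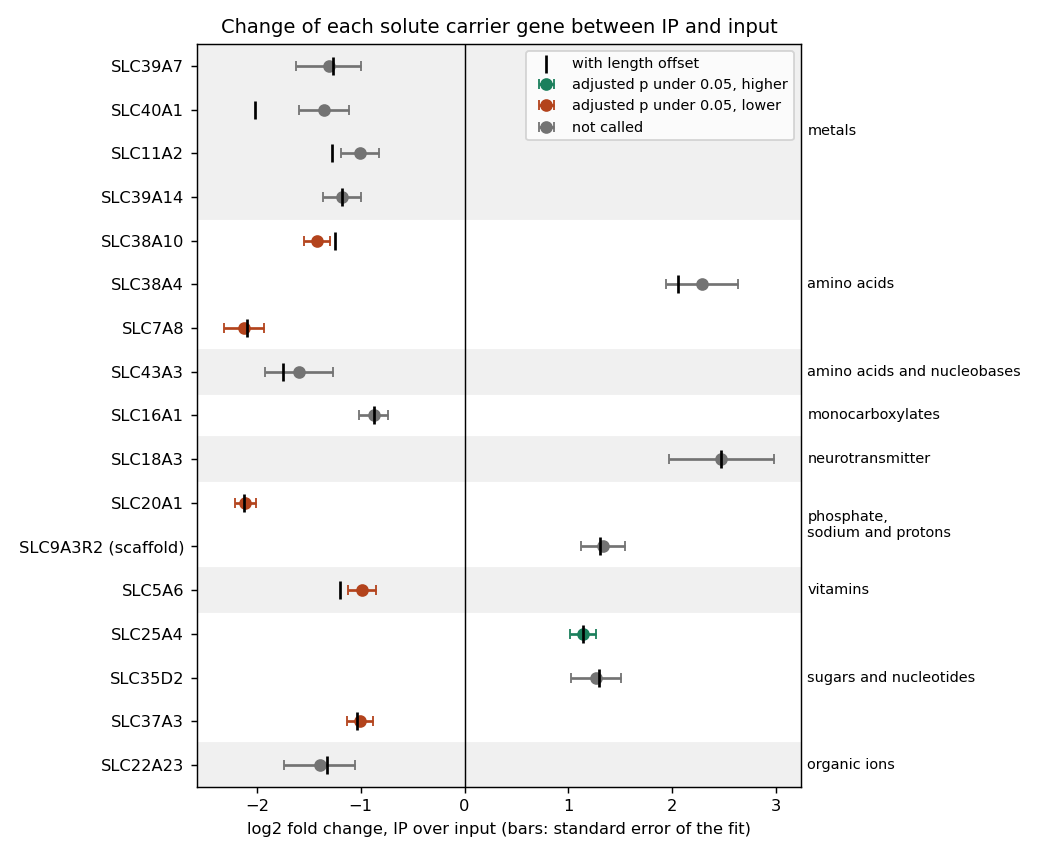
log2 fold change of IP over input (x axis) for each of the 17 genes on the y axis, with the standard error of the edgeR fit as bars and the value with a transcript length offset as a black tick. SLC25A4 is called higher and 5 genes lower, and SLC40A1 has the widest distance between point and tick.

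Metal transporters were below the input in every IP, all 4 of them, and none was called. SLC11A2 (divalent metal transporter DMT1, chr12:51373184-51422349, minus strand; positions here and below are of GRCh37, which is hg19, from GENCODE) brings iron into the cytosol. It had 20.8, 16.5 and 15.0 TPM in the IPs against 52.6 TPM in the input. All 3 IPs were well under the input, replicate 1 the highest of them, at a log2 fold change of -1.01 (SE 0.18, adjusted p = 0.0682). It was called once the fit took account of transcript length (log2 fold change -1.28, adjusted p = 0.0454).

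SLC40A1 (ferroportin, chr2:190425316-190448484, minus strand) is the only known exporter of iron from cells. Its summed levels were 26.9, 13.3 and 17.1 TPM in the IPs, beside 95.5 TPM in the input, a CV of 36.8% over the IPs, the widest spread among the 17. Most of the input's sum comes from a transcript of 262 bases (uc002uqr.1), which had 47.7 reads in the input and at most 11.6 in an IP yet 65.6 TPM in the input and between 5.10 and 14.9 TPM in the IPs, because a few reads on a very short transcript weigh heavily per length. The full transcript of 3355 bases (uc002uqp.4) held 97.9% of the input's reads for the gene and had 11.7, 8.17 and 8.33 TPM in the IPs against 29.6 TPM in the input. On counts, the log2 fold change was -1.35 (SE 0.24, adjusted p = 0.0664), and with the length offset -2.01 (adjusted p = 0.072).

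Iron-responsive elements are hairpins in the untranslated regions of iron genes, bound by iron regulatory proteins when iron is scarce: in ferroportin mRNA the hairpin lies ahead of the coding sequence and represses translation, and in DMT1 mRNA it lies behind it. They are shown because the IPs measure ribosome-bound RNA of both genes, with the 6-base loop in capitals (29 bases each, read from the GENCODE transcripts on GRCh37).
SLC40A1, 5′ UTR, chr2:190445387-190445415, minus strand: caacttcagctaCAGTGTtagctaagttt
SLC11A2, 3′ UTR, chr12:51382052-51382080, minus strand: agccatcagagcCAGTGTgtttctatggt
The search was for C, any 5 bases, the loop CAGTGN and 5 bases, with at least 4 of the 5 stem positions able to pair, on the sense strand of protein-coding transcripts. All 5 positions pair in SLC40A1 and 4 in SLC11A2. Another carrier, SLC5A6, has a match inside its coding sequence, and 11.52% of the 19807 protein-coding genes searched hold a match somewhere, so a match alone is a description. The element is in 4 of the 17 annotated protein-coding transcripts of SLC11A2 and in 1 of the 5 of SLC40A1.

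Both zinc-family carriers of the metal group pointed the same way. SLC39A7 (ZIP7, chr6:33168082-33172216, plus strand), which releases zinc from the endoplasmic reticulum and Golgi, had the highest mean of the 17 in the IPs and the highest level in the input, with 115, 64.2 and 76.6 TPM in the IPs, beside 255 TPM in the input. IP replicate 1 was well above the other 2 but still under the input, and the log2 fold change of -1.31 had an SE of 0.31 and an adjusted p of 0.118. SLC39A14 (ZIP14), which takes up zinc, iron and manganese, had 6.27, 6.30 and 5.09 TPM across the IPs against an input of 16.6 TPM (log2 fold change -1.18, SE 0.19, adjusted p = 0.0553).

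Of 18 other genes listed for iron handling, 5 were tied to transcripts, and of these 2 were called lower and 0 higher. As with the carriers, only genes among the 1998 most significant rows could be tied, here and in the lists below. Their counts stand beside 28.9% called lower and 26.7% higher over the 1737 tied genes, and say nothing of the genes not tied. The transferrin receptor TFRC, which delivers transferrin-bound iron to endosomes, fell from 31.9 TPM in the input to 8.59 ± 1.04 TPM (SD, n = 3) in the IPs (log2 fold change -1.63, SE 0.16, adjusted p = 0.0314). HEPH, the ferroxidase that works beside ferroportin, fell from 75.7 to 33.1 ± 2.71 TPM (SD, n = 3; log2 fold change -0.92, SE 0.11, adjusted p = 0.0395). ACO1, an iron regulatory protein when it lacks its iron-sulphur cluster, had 41.4 TPM in the input and 12.4 ± 2.08 TPM (SD, n = 3) in the IPs, at an adjusted p of 0.0553. The STEAP family genes STEAP3 and STEAP1 lay on opposite sides, with log2 fold changes of -1.94 (adjusted p = 0.0656) and 3.44 (adjusted p = 0.0582). Of 10 other zinc genes only the vesicle zinc transporter TMEM163 was tied, with 17.2 ± 5.07 TPM (SD, n = 3) in the IPs against 5.72 TPM in the input (adjusted p = 0.0905).

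Among the amino acid carriers, SLC7A8 and SLC38A10 fell, while SLC38A4, of the same family as SLC38A10, lay on the other side of the input. SLC7A8 (LAT2, chr14:23594504-23652883, minus strand) is the light chain of an exchanger of large neutral amino acids and works joined to the heavy chain SLC3A2. It had 3.68, 3.75 and 3.15 TPM in the IPs, beside 18.7 TPM in the input. All 3 IPs were far under the input, which was 5.31 times their mean, and SLC7A8 had the lowest mean of the 17 in the IPs (log2 fold change -2.13, SE 0.19, adjusted p = 0.0291). SLC38A10 (chr17:79218611-79269347, minus strand), a member of the sodium-coupled neutral amino acid family, had 22.5, 19.5 and 21.3 TPM in the IPs, with the input at 62.6 TPM (log2 fold change -1.42, SE 0.12, adjusted p = 0.0291).

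SLC38A4 (SNAT4, chr12:47158544-47226191, minus strand), which couples small neutral amino acids to sodium, had 5.29, 5.72 and 6.31 TPM across the IPs against an input of 1.73 TPM. Every IP was over 3 times the input, whose 150 reads allow a ratio of mean IP to input TPM between 2.84 and 3.93 (95% Poisson interval of the input count, counting error only), and with 1 TPM added to each value the ratio was 2.48. The log2 fold change of 2.29 (SE 0.35) had an adjusted p of 0.0526. SLC43A3 (chr11:57174427-57195053, minus strand), of the LAT family but a carrier of purine nucleobases, had 5.0, 3.33 and 3.85 TPM in the IPs against 17.0 TPM in the input (log2 fold change -1.59, SE 0.32, adjusted p = 0.0843). None of the 14 listed partners and sensors of amino acid carriage, SLC3A2 among them, was tied to transcripts, so they are not analysed here.

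SLC16A1 (MCT1, chr1:113454469-113500215, minus strand), the proton-linked carrier of lactate and pyruvate, had 25.5, 27.4 and 27.5 TPM in the IPs, the tightest of all 17 at a CV of 4.23%, and 61.5 TPM in the input (log2 fold change -0.87, SE 0.14, adjusted p = 0.0562).

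Of 16 other genes of monocarboxylate and thyroid hormone handling 1 was tied, CRYM, which binds thyroid hormone in the cytosol. It fell, from 48.8 TPM in the input to 8.28 ± 1.62 TPM (SD, n = 3) in the IPs (log2 fold change -2.23, SE 0.32, adjusted p = 0.0482).

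SLC18A3 (VAChT, chr10:50818356-50820766, plus strand) loads acetylcholine into synaptic vesicles; it is a gene of 1 exon and rests on 1 transcript in the files. It had 7.26, 5.99 and 4.32 TPM in the IPs, with the input at 1.30 TPM, the lowest input level of the 17. The input value rests on 80 reads, so that the ratio of mean IP to input TPM of 4.49 could lie between 3.61 and 5.66 from counting error alone, and with 1 TPM added to each value it was 2.98. With a CV of 25.2% over the IPs, the log2 fold change of 2.48 (SE 0.50), the highest of the 17, had an adjusted p of 0.0852. Of 12 other acetylcholine genes 1 was tied, the nicotinic receptor subunit CHRNB4, which rose from 0.379 TPM in the input to 12.5 ± 2.25 TPM (SD, n = 3) in the IPs (log2 fold change 5.39, SE 0.45, adjusted p = 0.0291). The 2 tied of 9 markers of cholinergic or motor neurons, ISL1 and PRPH, had log2 fold changes of 3.50 (adjusted p = 0.0875) and 2.65 (adjusted p = 0.0506). The enzyme that makes acetylcholine, CHAT, was not analysed here.

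SLC20A1 (PiT1, chr2:113403516-113421402, plus strand), the housekeeping importer of phosphate coupled to sodium, fell with the smallest adjusted p of the 17. It had 33.4, 33.4 and 30.4 TPM across the IPs against an input of 176 TPM. The input was 5.43 times the IP mean of 32.4 ± 1.74 TPM (SD, n = 3), a log2 fold change of -2.11 (SE 0.10, adjusted p = 0.0181). It was the 2nd highest of the 17 in the input and the 4th highest in the IPs.

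The scaffold gene SLC9A3R2 (NHERF2, chr16:2075357-2089027, plus strand), which tethers ion transporters and receptors to the cytoskeleton through ezrin, had 29.8, 36.6 and 29.0 TPM in the IPs, beside 16.1 TPM in the input. All 3 IPs lay above the input, the opposite of SLC20A1 (log2 fold change 1.33, SE 0.21, adjusted p = 0.0565).

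Of 17 other genes listed for phosphate and proton handling and for the scaffold's membrane links, 4 were tied, with 2 called higher and 1 lower. The phosphate-regulating hormone FGF23 rose from 3.92 TPM to 12.1 ± 2.00 TPM (SD, n = 3; log2 fold change 1.94, SE 0.27, adjusted p = 0.0462), and the proton pump subunit ATP6V0E1 from 356.5 TPM to 523 ± 11.6 TPM (SD, n = 3; log2 fold change 0.87, SE 0.11, adjusted p = 0.0415). Moesin (MSN), which links membrane proteins to actin as ezrin does, fell from 163 TPM to 26.5 ± 2.62 TPM (SD, n = 3; log2 fold change -2.30, SE 0.12, adjusted p = 0.0184). The phosphatase ALPL had 3.97 ± 1.45 TPM (SD, n = 3) in the IPs, with the input at 0.243 TPM, at an adjusted p of 0.0656.

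SLC5A6 (chr2:27422455-27435826, minus strand), the sodium-dependent transporter of biotin and pantothenate, fell. It had 27.0, 24.0 and 23.1 TPM across the IPs against an input of 70.7 TPM (log2 fold change -0.99, SE 0.13, adjusted p = 0.0436). Of 13 genes that use the vitamins 2 were tied. The biotin enzyme MCCC2 fell from 29.4 TPM to 9.45 ± 0.83 TPM (SD, n = 3; log2 fold change -1.20, SE 0.17, adjusted p = 0.0473), and PANK3, which starts the conversion of pantothenate into coenzyme A, had 40.4 TPM in the input and 14.6 ± 2.31 TPM (SD, n = 3) in the IPs (log2 fold change -1.15, SE 0.18, adjusted p = 0.0522).

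Among the carriers of sugars and nucleotides, SLC25A4 (ANT1, chr4:186064420-186071536, plus strand) exchanges ADP for ATP across the inner mitochondrial membrane. It rests on 1 transcript and had 50.5, 45.7 and 43.2 TPM in the IPs against 26.2 TPM in the input. It rose 1.77-fold in TPM (log2 fold change 1.14 on counts, SE 0.13, adjusted p = 0.0361). SLC35D2 (chr9:99075726-99145993, minus strand), which brings nucleotide sugars into the Golgi, had 43.9, 35.7 and 30.6 TPM in the IPs, beside 18.6 TPM in the input (log2 fold change 1.26, SE 0.24, adjusted p = 0.0755).

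SLC37A3 (chr7:139993493-140104233, minus strand), of the sugar phosphate exchanger family, fell. It had 24.6, 21.8 and 20.8 TPM in the IPs, with the input at 57.2 TPM (log2 fold change -1.01, SE 0.12, adjusted p = 0.0401). SLC22A23 (chr6:3269196-3457284, minus strand), an organic ion transporter with no settled substrate, had 6.57, 7.25 and 4.80 TPM across the IPs against an input of 19.4 TPM, with the highest adjusted p of the 17 (log2 fold change -1.39, SE 0.34, adjusted p = 0.122).

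**Figure D3:**
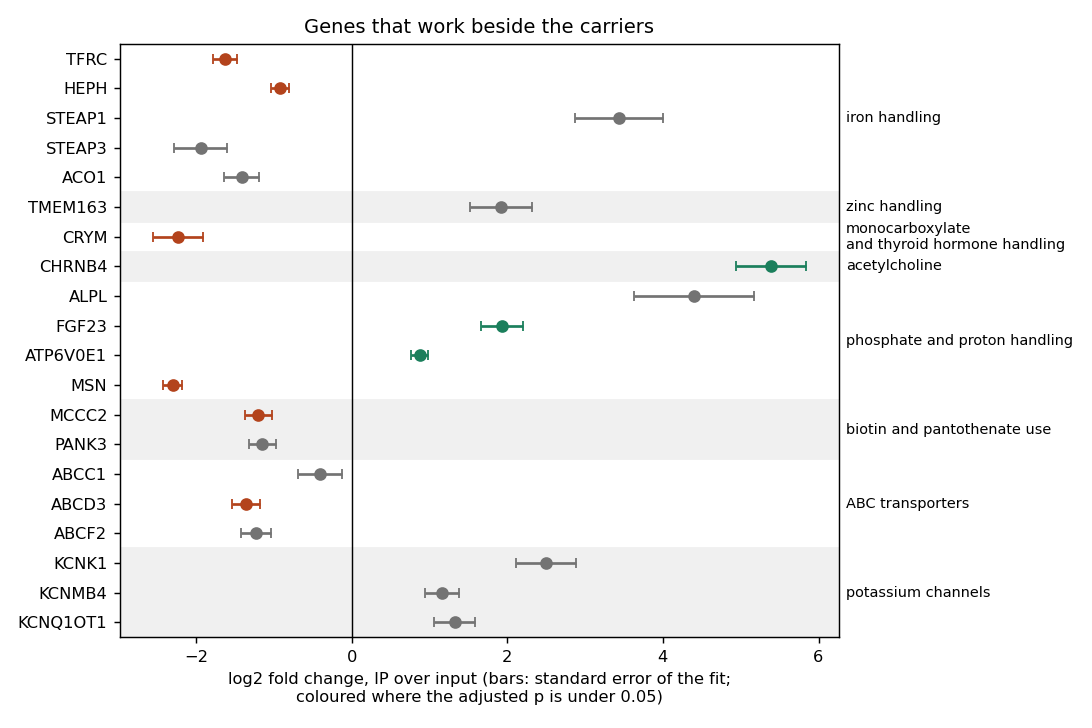
log2 fold change of IP over input (x axis) with the standard error of the fit for 20 tied genes (y axis), coloured where the adjusted p is under 0.05. The genes come from lists made around what the carriers do, or have symbols that match transporter and channel families. TFRC, HEPH, CRYM, MSN, MCCC2 and ABCD3 are called lower and CHRNB4, FGF23 and ATP6V0E1 higher.

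Other transporter families were looked up by the start of their symbols. The tied genes that matched the ABC pattern, ABCD3, ABCF2 and ABCC1, had log2 fold changes of -1.35, -1.23 and -0.41. Only that of ABCD3 was called (adjusted p = 0.0432). In TPM, ABCC1 had 4.65 ± 1.32 (SD, n = 3) in the IPs against 18.3 in the input. Its log2 fold change is on counts, which do not take account of transcript length as TPM does. The match was by symbol and does not show that each of them encodes a transporter. The potassium channel KCNK1, the channel subunit KCNMB4 and KCNQ1OT1, which matches the channel pattern but is a non-coding RNA, had log2 fold changes of 2.5, 1.16 and 1.33, and none was called. No tied symbol began with SCN or CACN (voltage-gated sodium and calcium channel subunits) or matched those of the sodium/potassium and calcium pumps (ATP1A, ATP1B, ATP2A, ATP2B, ATP2C). Other pumps and channels, which have other symbols, were not looked up.

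Levels over the 17 genes spanned from 3.53 to 85.3 TPM in the IPs and from 1.30 to 255 TPM in the input. In the IPs the first 4 were SLC39A7, SLC25A4, SLC35D2 and SLC20A1. The IP values of SLC25A4 lay below those of SLC39A7 and overlapped those of SLC35D2, which in turn overlapped those of SLC20A1. In the input the first 4 were SLC39A7, SLC20A1, SLC40A1 and SLC5A6, the place of SLC40A1 resting on its transcript of 262 bases. The CV over the IPs had a median of 11.7% over the 17 genes, beside 11.1% over all tied genes, and 8 of the 17 were below that value. The metal transporters SLC40A1 and SLC39A7 (31.1%) and the vesicular transporter SLC18A3 had the widest spread. That of SLC40A1 rests in part on its transcript of 262 bases, which had between 5.10 and 14.9 TPM in the IPs from few reads. SLC16A1, SLC20A1 (5.37%) and SLC38A10 (7.11%) had the tightest spread.

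For 15 of the 17 genes reads were divided among 2 or more transcripts, up to 11 for SLC11A2. The share of a gene's reads in its main transcript, the one with most reads over the 4 libraries, was not used to choose the genes, but a transcript chosen over 3 IPs and 1 input leans to the IPs. The share was higher in every IP than in the input for 9 genes, lower in every IP for 3 and on both sides for 3. In 6 genes the 95% Wilson intervals of all 3 IPs were clear of the input's (5 above, SLC38A10 below). These intervals cover counting error only; Salmon divides reads that fit several transcripts by estimate, and the error of that step is not in the files.

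**Figure D4:**
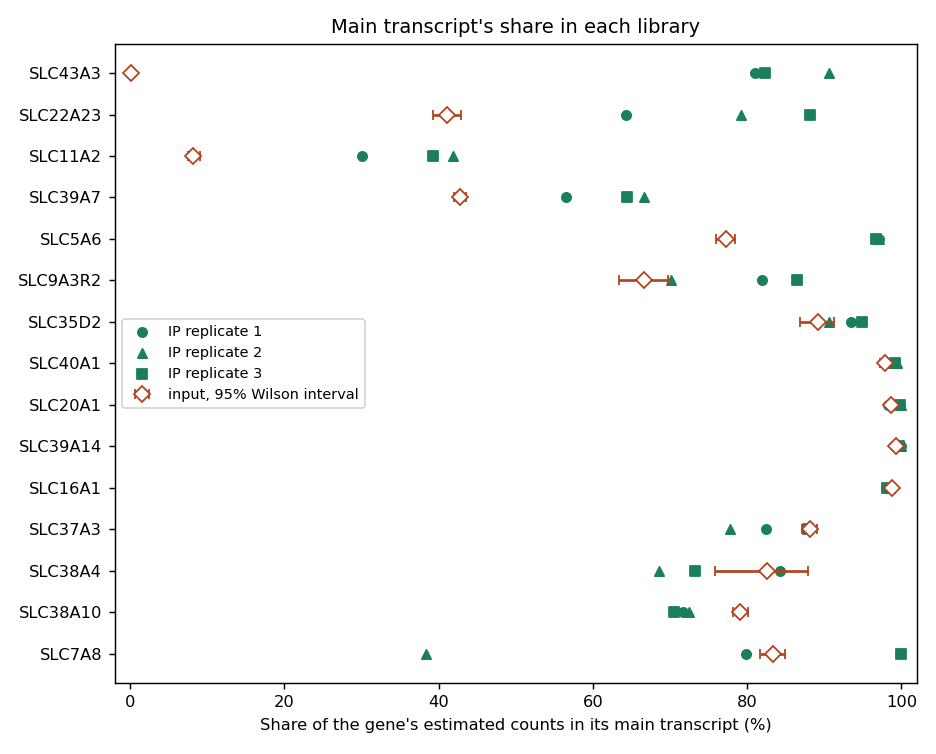
Share of each gene's estimated counts in its main transcript (x axis, %) in the 3 IPs (filled symbols) and in the input (open diamonds with 95% Wilson interval) for the 15 genes with 2 or more transcripts on the y axis. SLC43A3 shows the widest gap, from 0.0611% in the input to between 81.0% and 90.6% in the IPs, and SLC7A8 the widest spread among the IPs.

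The clearest difference was in SLC43A3. The transcript uc001nki.3 of 2597 bases held 81.0%, 90.6% and 82.4% of its reads in the IPs against 0.0611% in the input. The transcript uc001nkh.4 of 2646 bases held 65.1% in the input (95% Wilson interval 62.1% to 68.0%) and 0.0338%, 0% and 0% in the IPs, where 3 reads in place of the 0 would be 1.19% and 0.990% and the Wilson intervals reach 1.5% and 1.25%. The IPs and the input thus had different leading transcripts. Fitted alone, uc001nki.3 had a log2 fold change of 7.96 (adjusted p = 0.0396) although the gene as a whole was lower in the IPs; it rests on 0.6 reads in the input, so its size depends on the prior count of the fit.

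In SLC11A2 the transcript uc001rxf.3, at 2210 bases the shortest of its 11, held 24.3% of reads in the input (23.1% to 25.6%) and 0.807%, 0% and 1.59% in the IPs, where 3 reads in place of the 0 would be 0.152% and the Wilson interval reaches 0.194%. The transcript uc001rxe.4 of 3790 bases held 30.1%, 41.9% and 39.3% in the IPs against 8.20% in the input. On its own it was above the input (log2 fold change 1.16, adjusted p = 0.116), opposite in sign to the gene. In SLC5A6 the transcript uc010eyv.1 of 2561 bases held 18.0% in the input (16.9% to 19.2%) and 0.507%, 0% and 0.681% in the IPs (for the 0, 3 reads would be 0.154% and the Wilson interval reaches 0.196%), and the main transcript uc002rjd.3 alone had a log2 fold change of -0.64 and was not called (adjusted p = 0.106). The files give transcript names and lengths but not which exons these transcripts hold.

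In SLC38A10 a transcript of 1988 bases, uc031reu.1, held 15.6%, 9.42% and 11.9% of reads in the IPs against 0.637% in the input, with more reads in each IP (341, 199 and 284) than in the input (41.6) although the gene fell. SLC39A7 and SLC22A23 showed shifts of 19.7 and 36.1 percentage points towards their main transcripts. These transcripts were picked after their values were seen.

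**Figure D5:**
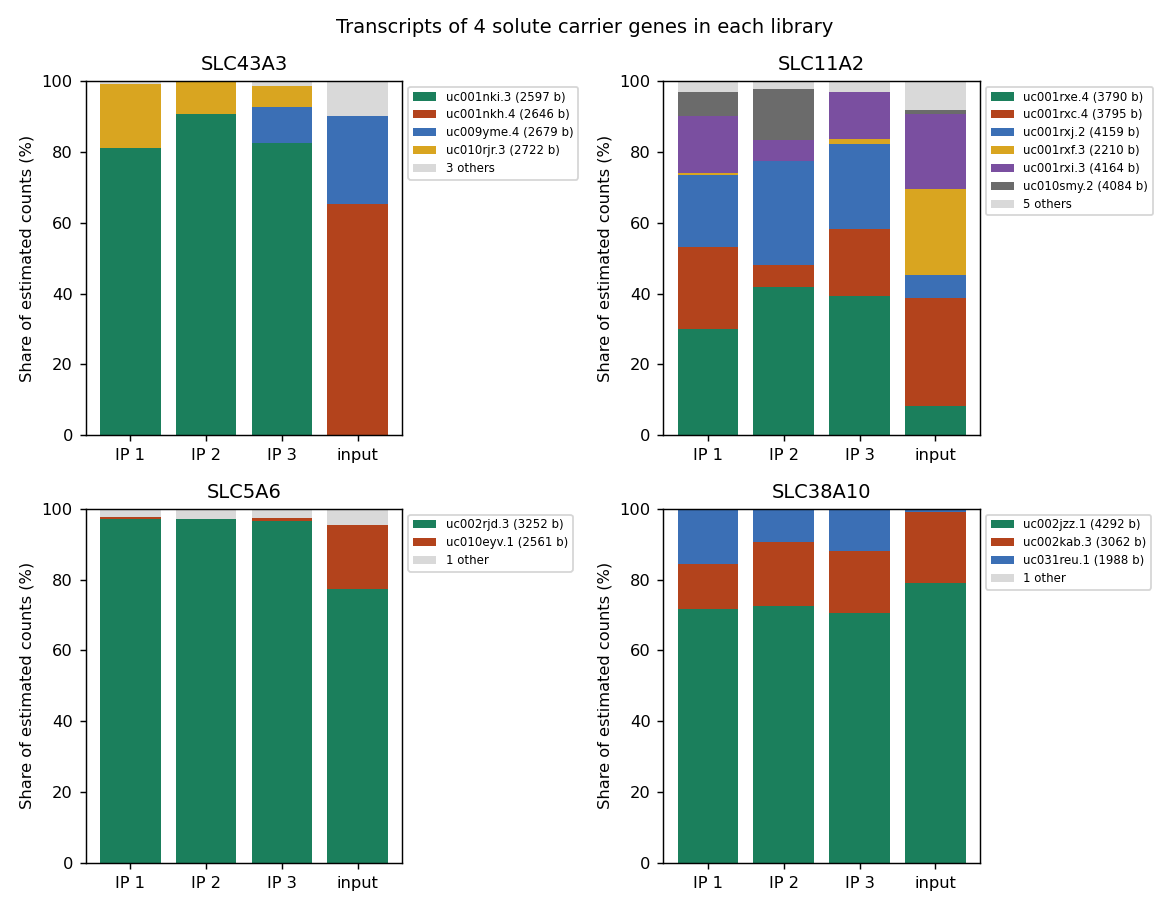
Share of estimated counts (y axis, %) of each transcript of SLC43A3, SLC11A2, SLC5A6 and SLC38A10 in IP replicates 1, 2 and 3 and in the input (x axis), stacked to 100; transcripts that reach 10% in a library have a colour of their own and the rest are grey. The leading transcript of SLC43A3 in the input, at 65.1%, is all but missing from the IPs, and the uc001rxf.3 segment of SLC11A2 shrinks from 24.3% in the input to at most 1.59% in an IP.

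ATOH1 is a basic helix-loop-helix factor, a class that binds the E-box CANNTG, so promoters of the called genes were inspected for these letters. RefSeq promoter windows (GRCh38.p14, 250 bases before to 50 after a start site) were found for 13 of the 17 genes, 19 windows in all since SLC7A8 and SLC11A2 have several. An E-box was in 11 of the 19 windows (57.9%) and in 68.7% of all 35116 windows in the table (both strands are covered because the pattern is its own reverse complement). The stretch before the start site is printed for the gene that rose and has a window and for the gene with the smallest adjusted p, with E-boxes in capitals.
SLC25A4, chr4:185143016-185143265, plus strand: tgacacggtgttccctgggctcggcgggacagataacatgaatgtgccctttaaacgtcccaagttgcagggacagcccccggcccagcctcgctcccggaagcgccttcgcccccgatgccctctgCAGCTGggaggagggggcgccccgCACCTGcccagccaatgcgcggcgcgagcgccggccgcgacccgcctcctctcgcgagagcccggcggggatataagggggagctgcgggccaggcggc
SLC20A1, chr2:112645689-112645938, plus strand: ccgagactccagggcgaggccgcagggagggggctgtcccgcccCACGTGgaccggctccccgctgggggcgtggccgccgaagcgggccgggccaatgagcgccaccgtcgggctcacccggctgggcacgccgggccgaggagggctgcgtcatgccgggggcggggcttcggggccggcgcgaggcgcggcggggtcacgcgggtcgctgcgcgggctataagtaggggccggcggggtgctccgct
SLC25A4, which rose, has 2 E-boxes and SLC20A1, which fell, has 1. Of the other called genes, the windows of SLC38A10 hold 3 and those of SLC7A8 1 or 2 each, that of SLC5A6 holds none, and SLC37A3 had no window in the table. E-boxes were thus present in windows of genes called in either direction, and a match says nothing of binding.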

How the data were processed

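TRAP-seq libraries (SMART-Seq v4 cDNA, Nextera XT, single reads) were analysed from the deposited transcript tables of 3 IPs and 1 input. Per the submitters' processing notes the authors used Salmon 0.8.2 and hg19; the deposited values are estimated counts and TPM, made by the authors from the reads, of 69548 UCSC transcripts, without gene names. Carriers and lists were chosen with earlier results of these data known. Symbols were tied to runs of 1 to 25 neighbouring transcripts whose summed mean count (within 5%) and log2 fold change (within 1e-05) equalled those of a row of the study's gene table; beyond this, that table's values served only to check which library is the input, so the direction of every result rests on that check too. Of 1998 rows, 1737 were tied, 99 were left out for several matches and 6 for a shared transcript. All 17 carriers were tied; 2 others that the rule takes are not reported here but stayed in the fits. In the annotation of GENCODE v44 (lifted to GRCh37), which the tying did not use, their runs followed chromosome order in 16 of 16 neighbouring pairs. Tied genes were summed, other transcripts kept alone, and counts rounded. edgeR 4.0.16 (R 4.3.3; TMM, filterByExpr with a minimum count of 10, quasi-likelihood test, Benjamini-Hochberg over all 43464 features) gave fold changes; its common biological coefficient of variation was 94.3%. The standard error is the fold change divided by the root of the F statistic. The functions were tested on simulated counts with a much smaller spread than these data, so this says nothing of how they perform here. Alternatives used DESeq2 1.42.0, limma 3.58.1, other scalings, filters, a length offset, each IP left out, TPM with 1 added or rescaled to the tied genes, the labels' assignment and the main transcript alone. Replicates come from separate differentiations for the IPs; the spread of the input is unknown. All carriers were named. Of other lists, every tied gene of those made around what the carriers do was named, and up to 3 tied genes per other family. Protein sequences were not used here.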

Additional observations from a re-analysis of the deposited data

How the results depend on the processing

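Median-ratio scaling, the length offset and no filter kept the counts of carriers called within 1.5 times of the 1 higher and 5 lower. DESeq2 called 5 and 12 (5733 and 3941 of all genes and transcripts, 843 and 892 of the tied genes). The carriers and tied genes had been selected from the study's own DESeq2 comparison. Requiring 50 or more counts in 2 libraries gave 5 and 9 (1849 and 1165; 750 and 756). limma-voom gave 0 and 0 in all 3 sets, as did every fit without 1 IP (range 0 to 0), where 1 residual degree of freedom is left. The labels' assignment also gave 0 and 0 in all 3 sets. The median log2 fold change of the carriers was -1.20 with the length offset, -0.64 for main transcripts alone and 0.29 under the labels' assignment, where 12 carriers had a mean IP TPM above the input, against 5. Under that assignment the log2 fold changes reversed to 0.0842 for SLC39A7, -0.38 for SLC25A4, -0.62 for SLC35D2, 1.11 for SLC20A1, -0.10 for SLC9A3R2, 0.52 for SLC16A1, 0.29 for SLC5A6, 0.33 for SLC37A3, 0.64 for SLC38A10, 0.26 for SLC40A1, 0.17 for SLC11A2, 0.37 for SLC22A23, 0.46 for SLC39A14, -0.86 for SLC18A3, -0.17 for SLC38A4, 0.44 for SLC43A3 and 1.05 for SLC7A8. Main transcripts alone reversed SLC11A2 (1.16) and SLC43A3 (7.96); alone, the main transcripts of SLC5A6 (-0.64, adjusted p = 0.106), SLC37A3 (-1.08, 0.0501) and SLC7A8 (-2.29, 0.131) were no longer called and that of SLC9A3R2 was (1.59, 0.0448), while SLC22A23 went to -0.50 and SLC39A7 to -0.77 on the log2 scale. The cause was not tested. Rescaling TPM to the tied genes moved the ratios of mean IP to input TPM by at most 12.6% and adding 1 TPM by at most 33.7%. No fit other than those with the labels' assignment or with main transcripts alone turned the sign of a carrier. No paired analysis was possible because the groups share 1 replicate number only. With 1 input, a difference between the groups cannot be told apart from one peculiar to that library.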
